A study of Mus musculus with 2 samples.

Results

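High-mitochondrial barcodes of mouse duodenal crypts were those with at least 500 detected genes and more than 25% of their unique molecular identifiers (UMIs, each counted as 1 RNA molecule) from genes whose symbol begins with mt-, the genes carried by mitochondrial DNA. They were chosen by that mt share, so their high mt share is a description and no finding. There were 3442 of them among the 12756 barcodes of the deposited matrix. The barcodes set against them were the 7784 with at least 500 genes and at most 25% mt UMIs, called the other barcodes here.

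The study concerns chronic stress and ageing of intestinal stem cells and used wild-type mice. Its groups, ES and NT, were each sequenced as 1 library from crypts pooled over 5 animals; the letters are not spelled out in the labels, and no age or sex was used here. Crypts came off the duodenum after 30 minutes on ice in 5 mM EDTA, passed a 70 µm mesh meant to hold back villi, and were split into single cells with TrypLE for 5 minutes before a 40 µm mesh. No label ties library 1 or library 2 to ES or NT, so the libraries are given by number and no stress effect is read from them. With 1 pooled library a group there is no test of any difference. The intervals below are exact 95% intervals for counting error and hold no spread between animals.

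A cell holds RNA in separate places. Messenger RNAs of ribosomal proteins and translation factors are used in the cytosol, mt- RNAs are made and used inside mitochondria, and some long noncoding RNAs never leave the nucleus. Malat1 collects in nuclear speckles, Neat1 builds paraspeckles, and Kcnq1ot1 is an imprinted antisense RNA that stays on its chromosome and silences neighbouring genes. The share of mt- RNA is widely used as a quality measure for dissociated cells. In the crypt, Lgr5-marked stem cells give rise to cycling progenitors and from there to enterocytes, goblet, Paneth, enteroendocrine and tuft cells.

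Malat1 and Kcnq1ot1, the nuclear RNAs followed most closely below, carry A-rich stretches in their genome-encoded sequence. These are shown because the kit named in the labels starts copying from runs of A. Malat1 lies on chr19:5795690-5802672 (mm10, minus strand, 1 exon). Kcnq1ot1 lies on chr7:143203458-143296549 (mm10, minus strand, 1 exon of 93092 bases), inside Kcnq1, which runs the other way. The Malat1 stretch is chr19:5795952-5796069, where capitals mark the 18-base A-rich tract at which the mature RNA ends, followed by the small tRNA-like RNA that is cut off. The Kcnq1ot1 stretch is chr7:143226905-143227025, where capitals mark its longest run of A, of 41 bases.
Malat1: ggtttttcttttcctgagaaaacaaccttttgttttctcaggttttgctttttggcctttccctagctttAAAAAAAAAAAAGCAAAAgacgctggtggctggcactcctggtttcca
Kcnq1ot1: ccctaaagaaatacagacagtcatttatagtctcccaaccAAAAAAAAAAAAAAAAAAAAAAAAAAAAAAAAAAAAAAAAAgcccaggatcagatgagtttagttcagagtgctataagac
Kcnq1ot1 holds 30 runs of 8 or more A, Malat1 holds 1, and the 20771-base Neat1 holds 0. Where the reads fell within these genes was not analysed here, and no strand setting is given for the counting, so reads of Kcnq1ot1 and of Kcnq1 introns cannot be told apart.

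In library 1, 1416 of 5473 barcodes with at least 500 genes were high-mitochondrial (25.9%, interval 24.7 to 27.1). In library 2 they were 2026 of 5753 (35.2%, interval 34.0 to 36.5). Their median mt share was 41.8% in library 1 and 37.8% in library 2, against 10.1% and 9.19% in the other barcodes. The high share went with few nuclear molecules rather than many mt molecules. High-mitochondrial barcodes had a median of 1382 and 1350 mt UMIs in libraries 1 and 2, against 1054 and 1112 in the other barcodes. Their median nuclear UMIs were 1774 and 2030, against 9645 and 10639 in the other barcodes. They therefore held 29.4% and 39.0% of all mt UMIs of their libraries and 6.89% and 10.3% of the nuclear UMIs. The threshold crosses a continuous range. The 37 and 63 barcodes at 25 to 26% mt had 2446 and 2240 Malat1 CPM (counts per 1000000 nuclear UMIs, mt- genes taken out of the total), and the 32 and 64 barcodes at 24 to 25% had 1890 and 2566. The libraries shared 40 barcode sequences, 22 of them with a high-mitochondrial barcode in at least 1 library.

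**Figure D1:**
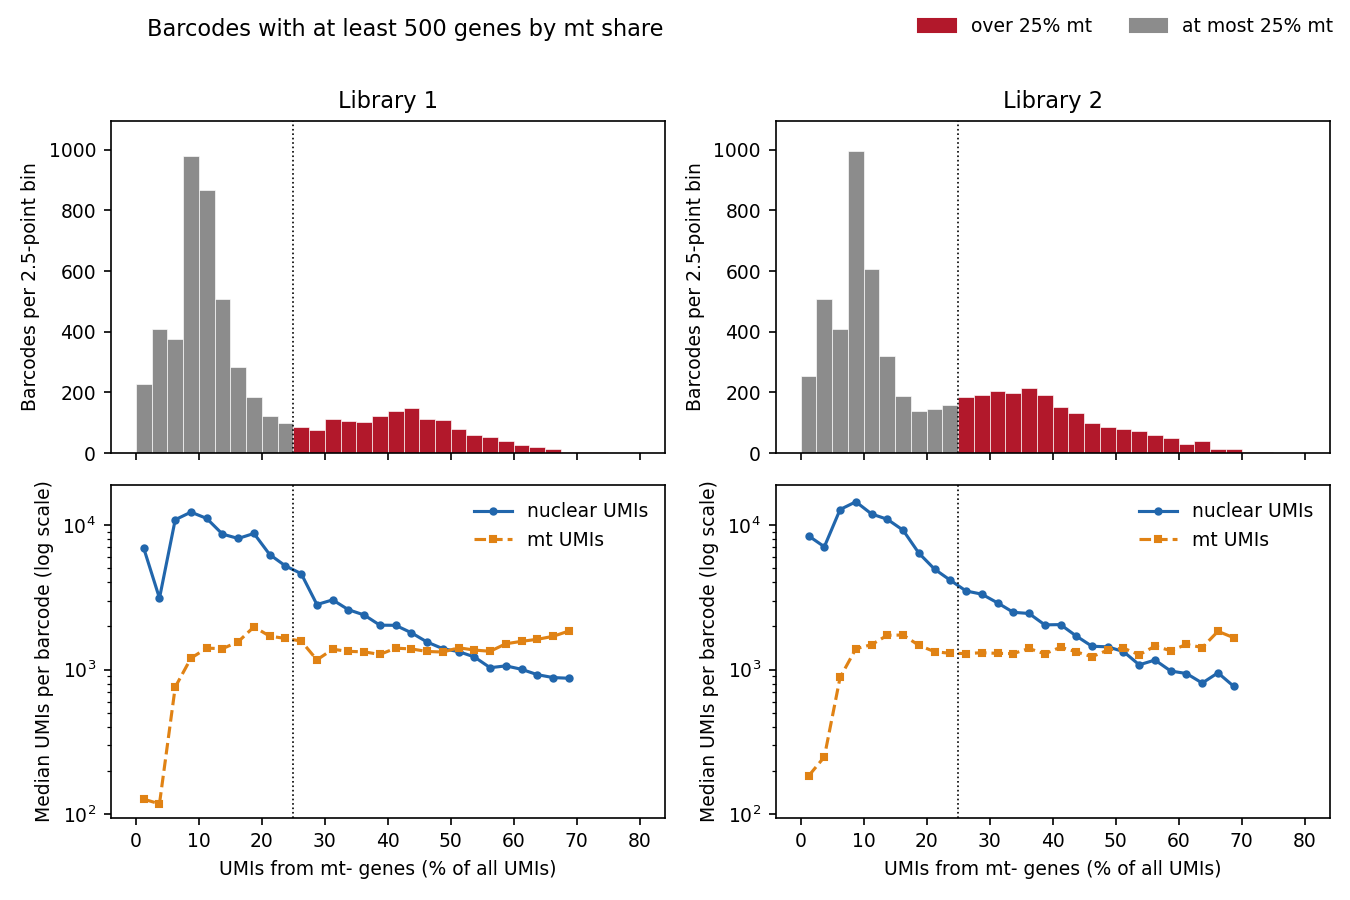
Upper panels show the number of barcodes with at least 500 genes in bins of mt share (% of all UMIs), over 25% in red and at most 25% in grey; lower panels show the median nuclear and mt UMIs per barcode in the same bins on a log scale. To the right of the dotted 25% line nuclear UMIs mostly decline with mt share in both libraries, while most bins of mt UMIs lie near their median of 1382 in library 1 and 1350 in library 2.

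The make-up of the mt- RNA itself was nearly the same in both kinds of barcode. mt-Nd5, a subunit of respiratory complex I, made up 7.65% and 7.39% of mt UMIs in high-mitochondrial barcodes, against 7.06% and 7.01% in the others. The leading gene mt-Cytb, of complex III, made up 24.4% and 23.9%, against 25.1% and 24.8%. mt-Co1 (complex IV) made up 21.1% and 21.3%, against 19.97% and 20.3%. mt-Nd1 made up 16.3% and 16.7%, against 17.5% and 17.3%. The order of the 7 abundant genes, which also include mt-Nd2, mt-Nd4 and mt-Nd6, was thus kept, and the ratios of their shares lay between 0.93 and 1.08.

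The other mt- genes, mt-Nd3, mt-Co2, mt-Atp6, mt-Co3, mt-Nd4l and mt-Atp8, were each at or below 0.11% of mt UMIs in either kind, although they are transcribed with the rest. For mt-Nd3, mt-Co2, mt-Atp6, mt-Co3 and mt-Nd4l at least 98.1% of all 40-base words also occur in a nuclear pseudogene on chromosome 1, against at most 62.5% for each of the other 8. mt-Atp8 is low with 2.42% of its words shared. The first 60 bases of mt-Co2 and of its nuclear copy are shown for this reason, with no base in capitals because none differs.
mt-Co2, chrM:7013-7072, plus strand: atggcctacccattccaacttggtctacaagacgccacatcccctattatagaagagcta
Gm28661, chr1:24615506-24615565, minus strand: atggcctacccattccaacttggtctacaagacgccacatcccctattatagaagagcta
These pseudogenes are not among the 31253 features of the matrix. The part of this overlap in the counts was not tested; the 5 genes held 0.182% and 0.190% of mt UMIs in high-mitochondrial barcodes, against 0.190% and 0.180% in the others, so the mt share hardly includes them.

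Of 11976 nuclear genes with at least 50 UMIs in each library, 843 (7.04%) were at least 2-fold higher in high-mitochondrial barcodes in both libraries with intervals above 1, and 393 (3.28%) were at least 2-fold lower. The median log2 ratio over all of them was 0.10 in library 1 and 0.15 in library 2. Without the barcode sequences that the libraries share, 840 genes were higher and 391 lower. Barcodes of the T lymphocyte-like, Paneth-like, goblet-like, enteroendocrine-like and B cell-like clusters, named below, were rare among the high-mitochondrial ones. When those clusters were left out, 829 (7.38%) of 11230 measured genes were higher and 83 (0.739%) lower.

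Apart from cell type markers, the nuclear long noncoding RNAs had the highest median ratio of the gene lists. Malat1 reached 3781 CPM in high-mitochondrial barcodes of library 1, against 678 CPM in the others (ratio 5.58, interval 5.46 to 5.70), and 3591 against 726 CPM in library 2 (4.95, 4.86 to 5.04). Kcnq1ot1 had 77.2 CPM in high-mitochondrial barcodes of library 1, from 250 UMIs, against 15.6 CPM in the others (4.96, 4.28 to 5.75). In library 2 Kcnq1ot1 had 93.2 CPM, from 456 UMIs, against 12.4 CPM (7.51, 6.60 to 8.53). Neat1 followed the same direction, with 262 against 62.3 CPM in library 1 and 279 against 81.6 CPM in library 2.

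Of the 16 RNAs in that list, 12 were in the matrix and 8 passed the count minimum. All gene lists used here were chosen with earlier results of these data known, so their counts are a description. Of these 8, 5 were called higher and 0 lower, beside 7.04% and 3.28% of all genes, and the median log2 ratio was 1.14 and 1.39. Mir17hg, host of a microRNA cluster, was 2.36- and 3.25-fold higher. Ftx, a noncoding gene of the X-inactivation centre, was 2.05- and 2.12-fold higher. Tug1 differed little at 1.05 and 1.13, and Jpx was below the 2-fold limit at 1.20 and 1.59. Of the 8, 7 had ratios above 1 in both libraries and 1 had ratios below 1 in both. In biotype terms, long intergenic noncoding RNA made up 0.675% of nuclear UMIs in high-mitochondrial barcodes of each library, against 0.282% and 0.290% in the others. Without Malat1 and Neat1 those shares were 0.270% and 0.288%, against 0.208% and 0.210%.

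Messages for splicing regulators, many of which are known to keep an intron and wait in the nucleus, were mostly higher. Of 29 genes of this list, 8 were called higher and 0 lower, beside 7.04% and 3.28% of all genes. Of the 29, 26 had a ratio above 1 in both libraries, and the median log2 ratio was 0.85 and 0.93. Srrm2, a scaffold protein of nuclear speckles, had 985 and 1036 CPM in high-mitochondrial barcodes, against 480 and 466 CPM in the others. Clk1, a kinase of SR splicing proteins, was 2.19- and 2.32-fold higher, and Ccnl2, a speckle cyclin, was 2.53-fold higher in both libraries. Ogt, the enzyme that adds O-GlcNAc to nuclear proteins, was 2.52- and 2.51-fold higher. Ankrd11, a chromatin cofactor placed in this list for its detained intron, was 3.03- and 2.77-fold higher. Rbm25, Rbm5 and Fnbp4 complete the 8. Ddx5, an RNA helicase, went the other way at 0.77 and 0.86.

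All 19 chromatin regulators examined had ratios above 1 in both libraries, with a median log2 ratio of 0.76 and 0.74. Of them, 4 were called higher, beside 7.04% of all genes. Kmt2a, a histone H3 lysine 4 methyltransferase, had 227 and 231 CPM in high-mitochondrial barcodes, against 102 and 99.4 CPM in the others. Kmt2d, of the same enzyme family, was 2.32- and 2.49-fold higher. The remodellers Chd2 and Chd7 were 2.19- and 2.06-fold and 2.13- and 2.39-fold higher.

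Messages of the translation machinery mostly had ratios below 1, by less than the 2-fold limit. Of 82 measured cytosolic ribosomal protein genes, 68 had ratios below 1 in both libraries, and the median log2 ratio was -0.38 and -0.34. Only 2 of the 82 were called lower and 1 higher, beside 3.28% and 7.04% of all genes. Eef1a1, the elongation factor that brings tRNAs to the ribosome, had 3652 and 3228 CPM in high-mitochondrial barcodes, against 7348 and 6501 CPM in the others, a ratio of 0.497 in both libraries. Eif3e, an initiation factor subunit, was at 0.471 and 0.449. Eef1a1 and Eif3e were the 2 of 17 translation factors called lower, and 14 of 17 had ratios below 1 in both libraries. The 18 cytoskeleton and cytosol genes followed by less, with medians of -0.18 and -0.20. The 16 genes of the endoplasmic reticulum had medians of -0.35 and -0.31, near those of the ribosomal proteins. No gene of either list was called. The median of the endoplasmic reticulum genes turned to 0.02, as the mean over libraries, when weighted to the cluster make-up of the others.

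Of 41 nuclear-encoded genes of the respiratory chain 0 were called in either direction, beside 7.04% of all genes called higher and 3.28% lower. The median log2 ratio was -0.05 and -0.01. Its sign depended on the barcodes compared: the mean over libraries, -0.03, was 0.36 between 1000 and 5000 nuclear UMIs, 0.18 against barcodes of at most 10% mt, and -0.24 when weighted to the cluster make-up of the others. Their summed level was 30291 and 29247 CPM in high-mitochondrial barcodes, against 30437 and 29671 CPM in the others. Among 20 genes for mitochondrial upkeep and import, Polg, the mitochondrial DNA polymerase, was 3.19- and 2.79-fold higher and Polrmt, the mitochondrial RNA polymerase, was 2.23- and 2.51-fold higher; the other 18 were not called. Lars2, the mitochondrial leucyl-tRNA synthetase, had 1161 and 944 CPM in high-mitochondrial barcodes, against 359 and 361 CPM in the others. Its value is uncertain, since the gene is on a list of loci that can take up reads of ribosomal RNA.

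Lists of stress and death genes stood near all genes, of which 7.04% were called higher and 3.28% lower. Of 17 immediate early genes 0 were called, with medians of 0.24 and 0.31; Fos was at 1.01 and 1.08 and Jun at 1.62 and 1.76. Of 9 measured heat shock genes 1 was called higher, Hspa1a, an inducible chaperone, at 2.28 in both libraries on 24 and 26 UMIs. Of 19 cell death genes 1 was called higher, Gsdmd, whose cleaved protein forms membrane pores, at 3.58 and 2.23. Of 9 integrated stress response genes 0 were called. A call of 1 member in lists this short does not stand out from the share over all genes.

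**Figure D2:**
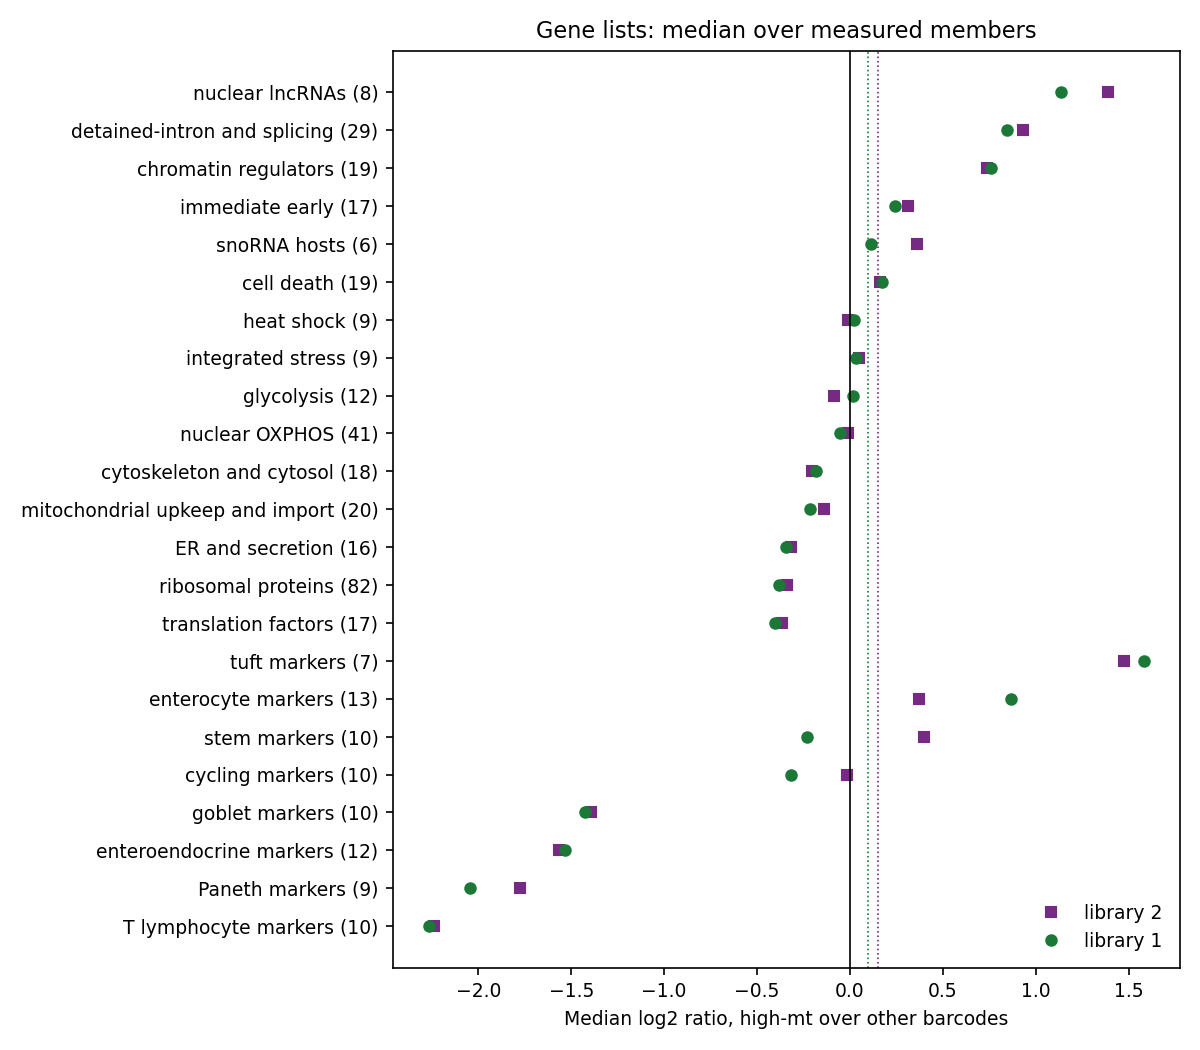
Points give the median log2 ratio, high-mitochondrial over other barcodes, over the measured members of each list (their number in brackets), squares for library 2 and circles for library 1; dotted lines give the medians over all measured genes, 0.15 and 0.10. Nuclear noncoding RNAs, splicing regulators and chromatin regulators lie to the right of all other lists that are not cell type markers, and ribosomal proteins and translation factors lie on the left.

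The genes that stood highest, ranked on whichever interval end lay closest to 1, were Nlrp9b, Tmprss15, Gdpd2, Gm10800, Podn, Malat1, Slc23a1, Slc7a15, Slc47a1, Synpo, Kcnq1ot1 and Slc5a12. Nlrp9b, an inflammasome receptor of the gut epithelium, had 71.0 and 70.5 CPM in high-mitochondrial barcodes, against 4.20 and 7.68 CPM in the others. Tmprss15 encodes enteropeptidase, the duodenal activator of trypsin, and Slc23a1, Slc7a15, Slc47a1 and Slc5a12 are membrane transporters. Tmprss15 had 8.34 and 7.56 CPM, against 0.946 and 0.832 CPM. The lowest were Gzma, Mptx2, Gzmb, Ets1, Defa29, Rgs1, Cacna2d1, Defa35, Defa34, Ang4, Defa5 and Cd7. They are largely genes of intraepithelial lymphocytes (Gzma, Gzmb, Cd7) or Paneth cells (the Defa alpha-defensins, Ang4). Gzma, a cytotoxic granule protease, had 75.3 and 121 CPM in high-mitochondrial barcodes, against 553 and 677 CPM in the others.

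Marker genes were then used to ask which crypt lineages supplied these barcodes, first without any clustering. Enterocyte markers summed to 11824 and 10674 CPM in high-mitochondrial barcodes, against 6220 and 7242 CPM in the others. Of 13, 4 were called higher: Apoa1, a lipoprotein of fat export, at 6.96 and 3.78, the detoxifying enzyme Cyp3a11 at 5.71 and 3.87, the brush border peptidase Anpep at 3.03 and 2.05, and the glucose carrier Slc2a2 at 3.14 and 2.04. Tuft markers summed to 173 and 260 CPM, against 47.3 and 103 CPM, with 4 of 7 measured called higher, among them Trpm5 and Avil. Stem and cycling markers were called in neither direction, 0 of 10 each. Over all genes, 7.04% were called higher and 3.28% lower. Stem markers summed to 3151 and 3719 CPM, against 4195 and 3527 CPM.

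The secretory and immune markers were the low ones. Paneth markers summed to 8573 and 11228 CPM in high-mitochondrial barcodes, against 29677 and 31212 CPM in the others. Of them, 9 of 9 were called lower, beside 3.28% of all genes. Goblet markers summed to 3808 and 4864 CPM, against 8480 and 13449 CPM, with 8 of 10 called lower. Enteroendocrine markers had 8 of 12 called lower and T lymphocyte markers 10 of 10, at 238 and 319 CPM against 1338 and 1509 CPM. The direction for Paneth and T lymphocyte markers depends on the make-up of the barcodes. Their median log2 ratios, -1.91 and -2.25 as means over libraries, became 0.78 and 0.91 when weighted to the cluster make-up of the others. That weighting uses only clusters with at least 20 barcodes of both kinds in a library. It thus drops the Paneth-like, T lymphocyte-like, enteroendocrine-like and B clusters, and the goblet-like ones of library 1. In library 2 it also drops goblet-like cluster 12, with 14 high-mitochondrial barcodes. The change of sign is therefore not separate from leaving clusters out. Without the lymphocyte, Paneth, goblet, enteroendocrine and B clusters the medians were 1.246 and 1.29. The enterocyte median, 0.62, became -0.09 under that weighting. Markers of stroma, endothelium, smooth muscle, nerve and red cells summed to less than 3 CPM each in either kind of barcode, and myeloid markers to 51.0 and 32.3 CPM, against 28.3 and 19.9 CPM.

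Clusters of all barcodes with at least 500 genes, built without mt- genes and the noncoding, splicing and ribosomal lists, placed part of these barcodes in classes. A class is called X-like from its markers, and shares are of the barcodes in that class. Tuft-like barcodes were high-mitochondrial in 38 of 82 (46.3%, interval 35.3 to 57.7) in library 1 and 70 of 147 (47.6%, 39.3 to 56.0) in library 2. Enterocyte-like barcodes were high in 372 of 1032 (36.05%) and 484 of 1194 (40.5%). Stem-like barcodes were high in 91 of 571 (15.9%) and 156 of 556 (28.1%), and cycling-like ones in 128 of 968 (13.2%) and 225 of 796 (28.3%). Neither tuft-like and enterocyte-like nor stem-like and cycling-like shares separated from each other beyond counting error in both libraries. These shares depended on the clustering. At a resolution of 0.5, cycling-like barcodes were high in 35.5% and 49.0%, stem-like ones in 27.6% and 47.0% and enterocyte-like ones in 69.1% and 66.4%, beside 45.6% and 48.3% of tuft-like ones, so the order of these classes was not fixed. With a minimum of 1000 genes, cycling-like barcodes were high in 7.09% and 21.1%, stem-like ones in 8.93% and 24.1%, enterocyte-like ones in 45.7% and 57.2% and tuft-like ones in 30.2% and 31.3%. Enteroendocrine-like barcodes were high in 9 of 103 and 6 of 117, and goblet-like ones in 16 of 528 (3.03%) and 34 of 627 (5.42%). Paneth-like barcodes were high in 2 of 204 (0.980%) in each library, and T lymphocyte-like ones in 4 of 287 and 2 of 241. Of the B cell-like barcodes 0 of 5 and 0 of 23 were high, too few to give a share.

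In this clustering more than 1 in 2 high-mitochondrial barcodes could not be named: 756 (53.4%) in library 1 and 1047 (51.7%) in library 2. At a clustering resolution of 0.5 in place of 1, the unnamed share was 27.05% and 24.4%, and with a minimum of 1000 genes it was 61.5% and 60.2%. Unnamed high-mitochondrial barcodes had a median of 1748 and 2033 nuclear UMIs, above the 1414 and 1791 of stem-like ones. The largest unnamed group, cluster 4, was mostly high-mitochondrial, 346 of 388 barcodes in library 1 and 471 of 537 in library 2, and was led by the mitotic kinase gene Cit, Gm42047, Tcirg1 and Iqgap3. It held 24.4% and 23.2% of the high-mitochondrial barcodes. Its best marker list was cycling, with a mean log2 ratio of 0.72 against the other clusters, above the 0.49 of cluster 1, named cycling-like. Cluster 4 stayed unnamed because none of its 10 leading genes was on that list. The cycling-like shares above therefore leave its barcodes out. Cluster 8, led by Dnm1, Slc16a5 and Hbegf, was high in 126 of 185 and 142 of 198. Cluster 0, led by the gasdermin genes Gsdmc4, Gsdmc2 and Gsdmc3, was high in 118 of 363 and 232 of 630. When the high-mitochondrial barcodes were clustered by themselves, 33.1% in library 1 and 32.9% in library 2 stayed unnamed. Enterocyte-like barcodes then made up 24.6% and 23.3%, stem-like 18.8% and 21.8%, cycling-like 19.4% and 16.4%, tuft-like 2.26% and 3.16%, and goblet-like 1.98% and 2.47%.

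**Figure D3:**
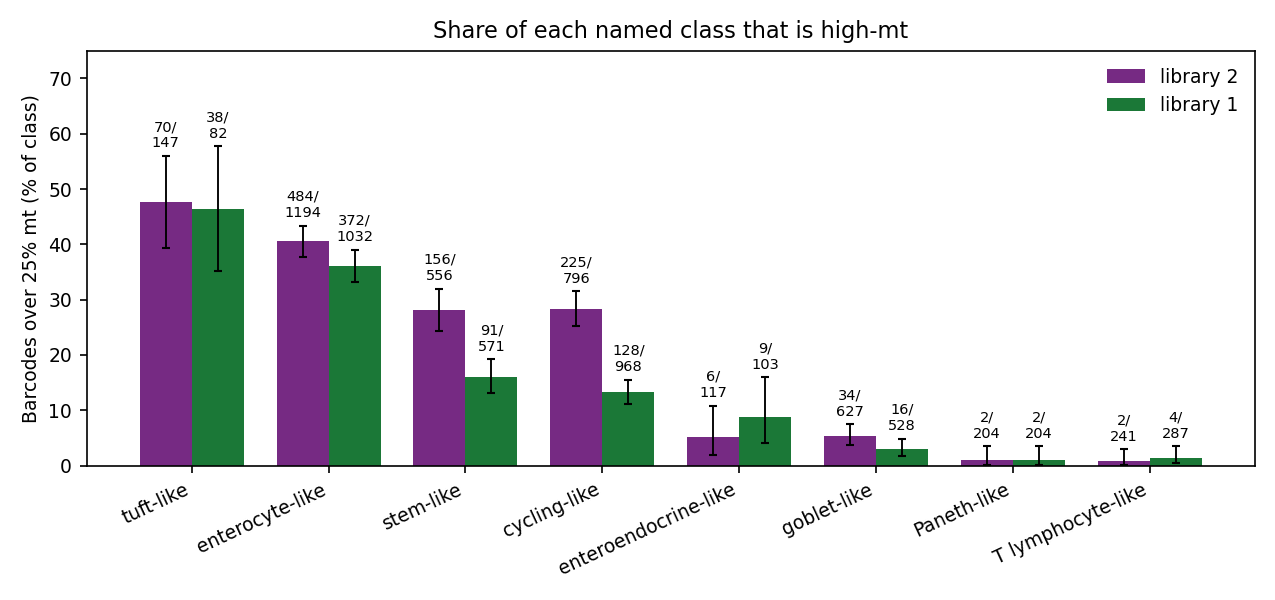
Bars show the percentage of each named class that was high-mitochondrial, library 2 left and library 1 right, with exact 95% binomial intervals and the numbers of barcodes above them. Tuft-like and enterocyte-like classes reach 46.3% and 36.05% in library 1, and 47.6% and 40.5% in library 2, while Paneth-like stays at 0.980% in each.

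To set barcodes of equal depth side by side, each was thinned to 700 nuclear UMIs, which left out 51 and 56 high-mitochondrial and 93 and 53 other barcodes. Lct, the lactase of mature enterocytes, then had a UMI in 12.9% and 12.3% of high-mitochondrial barcodes, against 2.12% and 3.92% of the others. Before thinning these shares were 22.0% and 21.1%, against 12.6% and 19.7%. Among T lymphocyte-like barcodes, which should lack Lct and had a median of 2354 and 3119 nuclear UMIs before thinning, 0.357% in library 1 and none of 237 in library 2 had a UMI, which allows up to 1.27%. Mki67, a proliferation gene, was found in 30.1% and 30.1% of high-mitochondrial barcodes, against 21.3% and 18.1% of the others and 8.57% and 15.2% of T lymphocyte-like ones. Mki67 does not stand for its list. Without thinning, 2 of the 10 cycling markers had ratios above 1 and 5 below 1 in both libraries. Their median log2 ratio was -0.32 and -0.02, while their sum was 1.11- and 1.32-fold higher. After thinning, Kcnq1ot1 had a UMI in 5.71% and 7.11% of high-mitochondrial barcodes, against 1.41% and 1.22% of the others. Defa24, a Paneth granule peptide, was found in 93.0% and 96.1% of thinned high-mitochondrial barcodes, against 73.0% and 82.8% of the others. T lymphocyte-like barcodes, which do not make it, had it in 61.8% and 76.8%, so a Defa24 UMI alone was not taken as Paneth content. The high-mitochondrial shares lay above those of T lymphocyte-like barcodes, and the source of this Defa24 RNA was not tested.

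The nuclear pattern was examined again inside the 3 classes with at least 50 barcodes of both kinds in each library, enterocyte-like, cycling-like and stem-like. Of 9656 genes measured in each, 349 (3.61%) were at least 1.5 times higher in high-mitochondrial barcodes in all 3 classes and both libraries, and 114 (1.18%) were at least 1.5 times lower. These calls did not require an interval that excludes 1, so some members may lie within counting error in a class. Of the 349, the 10 with the highest median ratio were Kcnq1ot1, Srcap, Rnf123, Trpm5, Malat1, Myo9a, Tubgcp6, H2-Q6, Uba7 and Abca2. Kcnq1ot1 was 9.51- and 10.8-fold higher in cycling-like and 6.496- and 11.1-fold higher in stem-like barcodes. In enterocyte-like barcodes it was 3.76-fold higher in library 1 on 11 UMIs, and 1.74-fold on 8 UMIs in library 2 with an interval of 0.70 to 3.77, which includes 1. Malat1 was 9.16- and 9.01-fold higher in enterocyte-like, 4.19- and 3.41-fold higher in cycling-like and 3.75- and 4.05-fold higher in stem-like barcodes. Myo9a, an unconventional myosin, ranged between 1.93- and 9.35-fold.

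The levels of the nuclear RNAs among high-mitochondrial barcodes differed by class. Malat1 had 12302 and 13174 CPM in the tuft-like ones, against 1963 and 3032 CPM in the other tuft-like barcodes. It had 5755 and 5700 CPM in enterocyte-like high-mitochondrial barcodes, against 628 and 632 CPM in the other enterocyte-like ones. In cycling-like barcodes it had 1881 and 1465 CPM, against 449 and 429 CPM, and in stem-like ones 2600 and 2329 CPM, against 694 and 574 CPM. Kcnq1ot1 had a different order. Among the enterocyte-like, cycling-like and stem-like classes it was highest in stem-like high-mitochondrial barcodes, at 251 and 429 CPM, against 38.6 CPM in the other stem-like barcodes of each library, and lowest in enterocyte-like ones at 12.3 and 6.33 CPM, against 3.27 and 3.64 CPM. Cycling-like barcodes lay between, at 163 and 131 CPM, against 17.1 and 12.1 CPM. Tuft-like high-mitochondrial barcodes had 33.3 and 26.1 Kcnq1ot1 CPM, on only 2 and 3 UMIs, against 30.5 and 13.6 CPM in the other tuft-like barcodes. In the mostly high-mitochondrial cluster 4, Malat1 had 3245 and 2939 CPM in high-mitochondrial barcodes, against 1402 and 1276 CPM in its 42 and 66 others.

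Within the cycling-like, stem-like and enterocyte-like classes Malat1 was higher in the steps above 25% mt than in those below. These steps are too wide to place a change at the 25% line. Over all classes, Malat1 had 1410 and 2094 CPM at 20 to 24% mt. In cycling-like barcodes of library 1, Malat1 had 424 CPM at up to 10% mt, 479 at 10 to 25%, 1797 at 25 to 50% and 2497 CPM above 50%. In enterocyte-like barcodes of library 1 the same steps had 454, 677, 5309 and 8011 CPM, and in library 2 they had 435, 812, 5086 and 8904 CPM. Kcnq1ot1 in cycling-like barcodes of library 1 had 17.4, 16.8, 155 and 217 CPM. In library 2 the same steps had 9.01, 18.0, 130 and 161 CPM. Enterocyte-like barcodes of library 2 showed no such steps, with 2.101, 5.04, 6.60 and 4.92 Kcnq1ot1 CPM from 11, 29, 7 and 1 UMIs.

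**Figure D4:**
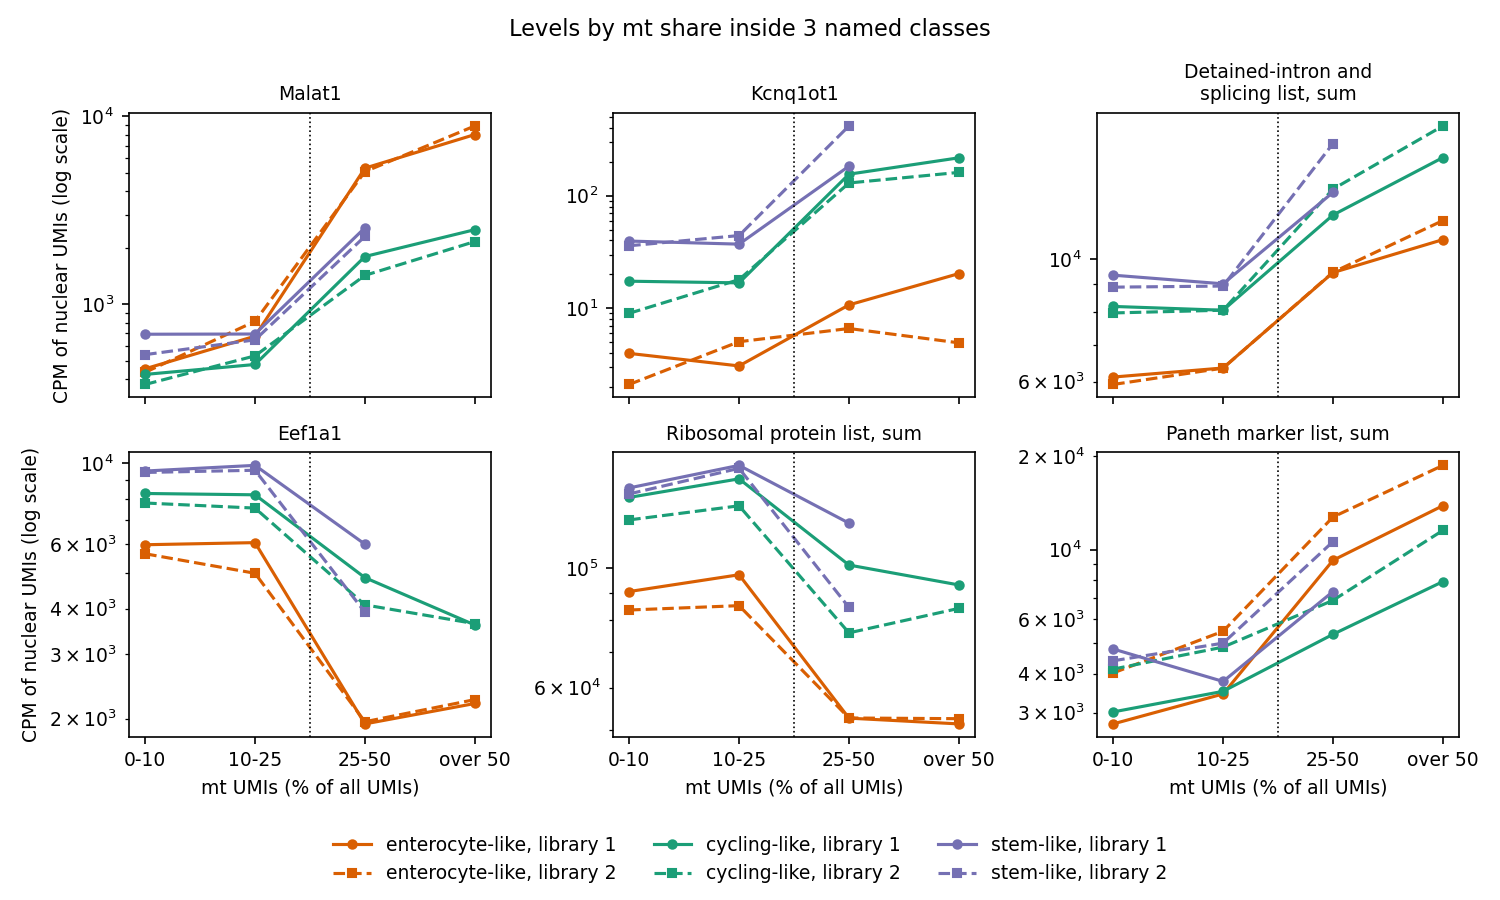
Levels (CPM of nuclear UMIs, log scale) of Malat1, Kcnq1ot1, the detained-intron list, Eef1a1, the ribosomal protein list and the Paneth marker list are drawn over 4 steps of mt share (% of all UMIs) inside the enterocyte-like, cycling-like and stem-like classes; the dotted line stands at 25%, and stem-like points above 50% are left out because they hold 16 and 7 barcodes. Malat1 in enterocyte-like barcodes of library 1 goes through 454, 677, 5309 and 8011 CPM, and the Paneth marker sum climbs beside it in the same class.

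Of the gene lists, the splicing list had 15 of 29 members higher in each class and library, beside 3.61% of all genes. The chromatin list had 5 of 19, among them Kmt2a, Chd7 and Chd2, and the nuclear noncoding list had 3 of 7 (Kcnq1ot1, Malat1 and Neat1). Ogt ranged between 2.53- and 3.84-fold and Srrm2 between 1.98- and 2.68-fold. On the low side, beside 1.18% of all genes, 6 of 81 ribosomal protein genes (Rps23, Rpl36a, Rps4x, Rpl6, Rpl24 and Rpl39) and 3 of 17 translation factors (Naca, Eef1a1 and Eif3f) were lower in each class. Eef1a1 lay between 0.327 in enterocyte-like barcodes and 0.591 in stem-like ones. None of the immediate early, heat shock, cell death or integrated stress genes was higher or lower in each class. Erh, a small conserved nuclear protein, stood second among the 114 lower genes, after Gadl1, at 0.264 to 0.638.

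The enterocyte-like class is made of unlike clusters. Its high-mitochondrial barcodes were mostly in cluster 11 (338 and 443), led by Cyp3a11, Apoa1 and Lct, and the others mostly in cluster 5 (509 and 478), led by Il18. Within cluster 11 alone Malat1 was still 6.75- and 5.93-fold higher and Eef1a1 at 0.515 and 0.608. The ribosomal protein sum was at 0.941 and 1.08 there, against 0.549 and 0.624 over the whole class. In cycling-like barcodes the ribosomal protein sum was at 0.715 and 0.608 and in stem-like ones at 0.795 and 0.593. Over 6 clusters taken by number, 63 of 4099 genes were higher and 15 lower in each cluster and library.

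Depth and markers of other cells moved with these values. High-mitochondrial barcodes with 1000 to 2000 nuclear UMIs had 4355 and 4818 Malat1 CPM, and other barcodes of that depth had 2229 and 3576 CPM, above the 678 and 726 CPM over all the others. Comparing only barcodes with 1000 to 5000 nuclear UMIs, Malat1 was 2.17- and 1.46-fold higher and Kcnq1ot1 2.46- and 2.69-fold higher in high-mitochondrial barcodes. Of 9215 genes measured there, 388 (4.21%) were higher and 574 (6.23%) lower. Of these, 232 and 239 were also called in the main comparison. With the lymphocyte, Paneth, goblet, enteroendocrine and B clusters also left out, Malat1 was 3.66- and 1.82-fold and Kcnq1ot1 2.003- and 2.02-fold higher. Of 8234 genes then measured, 105 (1.28%) were higher and 21 (0.255%) lower, with 487 and 405 other barcodes left. Fewer UMIs widen the intervals, so these counts do not separate lost differences from lost precision. Inside the classes, 5 of 9 Paneth markers (Lyz1, Ang4, Defa30, Defa22 and Defa24), the lymphocyte chemokine Ccl5 and the tuft channel gene Trpm5 were also higher in each class, beside 3.61% of all genes. The summed Paneth markers stood 3.04- and 2.86-fold higher in enterocyte-like, 1.74- and 1.62-fold in cycling-like and 1.70- and 2.30-fold in stem-like barcodes. The part of depth and of RNA from other cells in the nuclear pattern was not tested. No doublet removal was run.

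Genes higher in high-mitochondrial barcodes inside each class were longer and had more exons than those lower. The 349 had a median genomic span of 35.3 kb, a median transcript of 5177 bases and 18 exons. The 114 lower genes had 12.99 kb, 1958 bases and 5 exons, and all 9656 had 24.2 kb, 3399 bases and 8 exons. By span, the share of genes called higher was 1.79% under 5 kb, 2.61% at 5 to 20 kb, 3.84% at 20 to 50 kb, 4.97% at 50 to 100 kb and 5.78% above 100 kb. The share called lower was 2.49% in the shortest class and 0.534% in the longest. Median GC content of the transcripts was 52.7% for the higher genes, 44.7% for the lower and 49.2% for all. A run of 8 or more A was present in 28.9% of the higher, 22.8% of the lower and 32.3% of all these genes, counted in spliced transcripts. Runs of A in introns and the positions of reads were not examined here. Over all barcodes without classes the spans hardly differed, with medians of 20.9 kb for the 843 higher, 22.0 kb for the 393 lower and 23.4 kb for all measured genes.

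**Figure D5:**
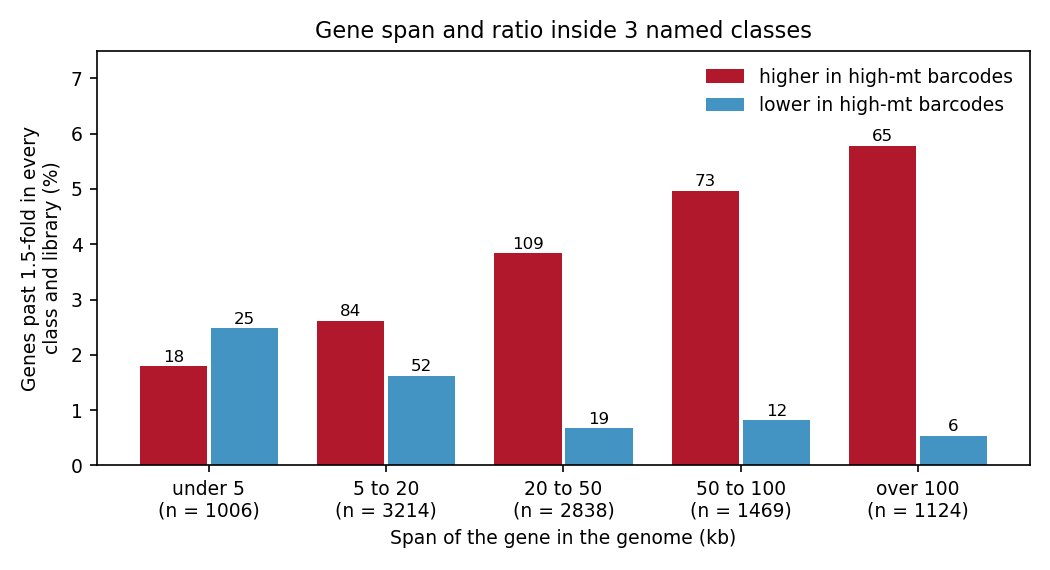
Bars show the percentage of genes higher (left bar) or lower (right bar) in high-mitochondrial barcodes in each of the 3 classes and both libraries, by genomic span in kb. Higher genes go through 1.79%, 2.61%, 3.84%, 4.97% and 5.78% over the 5 span classes, and lower genes are at 2.49% in the first and 0.534% in the last.

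The libraries could be set side by side among the high-mitochondrial barcodes, as a description of 2 libraries. Of 8703 genes with at least 100 UMIs, 57 (0.655%) were at least 2-fold higher in library 2 than in library 1 and 7 (0.0804%) at least 2-fold lower. Of these, 46 and 3 were 2-fold different in the same direction among the other barcodes too. Ly6a, Trim30a, Usp18, Ifi44 and Rtp4, all known as interferon-induced, led the higher genes. Ly6a had 21.3 CPM in library 2 and 1.24 CPM in library 1 (17.2-fold, interval 6.52 to 64.3). The lower genes were led by Gm47283, Cyp3a11, Fam71a, Cyp3a25 and Nr4a1. Cyp3a11 had 96.0 CPM in library 2 and 242 CPM in library 1. Malat1 and Kcnq1ot1 differed less, with a library 2 to library 1 ratio of 0.95 for Malat1 and 1.21 for Kcnq1ot1.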

How the data were processed

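The authors deposited 1 matrix of UMI counts for 31253 features and 12756 barcodes, made with Cell Ranger 2.1.1 on mm10 per the submitters' processing notes; barcode suffixes number the library. Barcodes are 27 bases in 3 parts, although the labels name a Chromium V3 kit. Each library is 1 pool; median UMIs per high-mitochondrial barcode were 3236 and 3402, which sets the precision. The counts were summed per library and kind of barcode, with mt- genes removed from the total. Ratios are high-mitochondrial over other barcodes with exact conditional Poisson intervals (scipy 1.17.1) for counting error. Genes needed 50 UMIs per library, or 20 inside classes, where calls required no interval. A list median sets a gene with no UMIs in a group at a floor of 3 UMIs. Clusters came from scanpy 1.11.5 (2000 variable genes without mt-, noncoding, splicing and ribosomal lists, 30 components, 15 neighbours, resolution 1), named from fixed markers. No doublet caller was run. Gene spans and sequences are from GENCODE M21 transcripts (mm10), which matched 99.53% of features. Ratios were tested on simulated counts. Named genes were the 12 called highest and lowest by the bound nearest to 1, the 10 by median ratio within classes, the most counted list members, the mt genes, and 5 in each direction between libraries. Members and lists were chosen with earlier results of these data known. Alternatives covered mt and gene minima, depth, weighting, fold, clustering resolution and cluster make-up. Weighting to the cluster make-up of the others used only clusters with at least 20 barcodes of both kinds in a library.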

Additional observations from a re-analysis of the deposited data

Results flagged for a closer look

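Gip, the incretin hormone of enteroendocrine K cells, moved in opposite directions in the libraries, and the difference was not tested. In library 1 it had 149 CPM in high-mitochondrial barcodes, against 46.1 CPM in the others (3.24-fold). In library 2 it had 138 CPM, against 340 CPM (0.405-fold). In library 1 a single high-mitochondrial barcode held 390 of the 484 Gip UMIs (80.6%), while in library 2 the top barcode held 128 of 674.

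The matrix also holds barcodes under 500 genes, which the comparisons did not use. Of these, 142 in library 1 and 193 in library 2 had over 25% mt UMIs. Summed, they had 7024 and 5226 Malat1 CPM, against 1328 and 2589 CPM in the barcodes under 500 genes with at most 25% mt. Kcnq1ot1 had 84.6 CPM on 6 UMIs and 141 CPM on 13 UMIs, against 31.9 and 18.7 CPM.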

How the results depend on the processing

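No paired analysis was possible because each group is 1 pooled library and no result comes from a test. Over the alternatives, 61 values of the main results stayed within 1.5-fold for a count or within counting error or list spread, 65 moved more and 0 changed direction. This covers the counts of genes, Malat1, Kcnq1ot1, the shares of barcodes and the medians of the noncoding, splicing and ribosomal lists. A count or a share of barcodes has no direction to change, so the 0 speaks only for Malat1, Kcnq1ot1 and those medians. The balance of the gene counts did turn, from 843 higher and 393 lower to 388 and 574 between 1000 and 5000 nuclear UMIs. Other list medians did change sign: weighted to the cluster make-up of the others, Paneth markers were at 0.78 (unweighted -1.91), T lymphocyte markers to 0.91 (-2.25), enterocyte markers to -0.09 (0.62) and endoplasmic reticulum genes to 0.02 (-0.33). Respiratory chain genes (-0.03) were at 0.36 between 1000 and 5000 nuclear UMIs, 0.18 against at most 10% mt and 0.02 with equal weight per barcode. Heat shock genes, at 0.01, also took either sign. List medians here are the mean over libraries, 1.26 for nuclear noncoding RNAs, 0.89 for the splicing list and -0.36 for ribosomal proteins. With over 50% mt as the rule, 200 genes were lower, the medians were 1.62, 1.01 and -0.61, Malat1 was 7.87 and 8.20 and Kcnq1ot1 in library 1 was 7.26. Against barcodes of at most 10% mt, 604 genes were lower, the ribosomal median was -0.30, and in library 2 Malat1 was 5.47 and Kcnq1ot1 8.94. With at least 1000 genes, Malat1 was 4.66 in library 2 and Kcnq1ot1 3.95 in library 1, 21.3% and 30.2% of barcodes were high, and 45.7% and 57.2% of enterocyte-like ones. Between 1000 and 5000 nuclear UMIs, 388 (4.21%) of 9215 measured genes were higher and 574 (6.23%) lower. The medians were 0.64, 0.38 and -0.23, Malat1 was 2.17 and 1.46 and Kcnq1ot1 2.46 and 2.69. Giving each barcode equal weight, 680 genes were lower, the first medians were 1.05 and 0.82, Malat1 was 4.13 and 3.39, Kcnq1ot1 in library 2 was 5.64, and 11 genes were lower in library 2. A minimum of 200 UMIs gave a noncoding median of 1.70, and a fold of 1.5 gave 2100 higher and 909 lower genes. Weighted to the cluster make-up of the others, 547 genes were higher and 192 lower. Of these, 279 and 64 were also called in the main comparison. Calls under this weighting, with equal weight per barcode and inside classes used the fold alone and no counting interval. Clusters with fewer than 20 barcodes of either kind in a library, such as the Paneth-like and T lymphocyte-like ones, were left out of the weighting. The noncoding and ribosomal medians were 1.60 and -0.51, Malat1 was 4.83 and 4.62 and Kcnq1ot1 in library 1 was 7.18. The following were chosen after seeing the data, as was leaving out shared barcode sequences. Without lymphocyte, Paneth, goblet, enteroendocrine and B clusters, 83 genes were lower, the ribosomal median was -0.46 and Malat1 was 6.51 and 5.93. With that and 1000 to 5000 nuclear UMIs, 105 (1.28%) of 8234 measured genes were higher and 21 (0.255%) lower. The medians were 1.05, 0.61 and -0.44, Malat1 was 3.66 and 1.82 and Kcnq1ot1 2.003 and 2.02. By cluster number, 63 genes were higher and 15 lower. A threshold of 20% gave 29.9% and 40.5% high barcodes, 30% gave 22.9% and 28.7%, and a minimum of 200 genes gave 24.7% in library 1. The enterocyte-like class was high in 69.1% and 66.4% at resolution 0.5 and in 58.7% at resolution 2 in library 2; at resolution 0.5 the cycling-like class was high in 35.5% and 49.0% and the stem-like one in 27.6% and 47.0%. The cause of each move was not tested. Genes near the count minimums are limited by depth.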
